A study of Mus musculus with 6 samples.

Results

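The genes of the constitutive 26S proteasome, the main protein-degrading machine of the cell, were read in RNA-seq libraries of young and old mouse hearts. Members were taken by name from the rows of the count table: every Psma, Psmb, Psmc or Psmd gene with a number, without the immunoproteasome genes Psmb8, Psmb9 and Psmb10. That gave 36 genes of 43629 named rows, 16 of the core (Psma and Psmb) and 20 of the cap (Psmc and Psmd). Both groups were heart tissue of male C57BL/6 mice on normal chow, and the labels name no treatment and no altered allele. The young group held 3 mice aged 2 months and the old group 3 mice aged 22 months, each an independent animal per the design text. Total RNA was sequenced, although the extraction text of the labels refers to another sample type, abbreviated NRVMs.

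Proteins tagged with ubiquitin are bound, unfolded and pulled into the proteasome, where they are cut into peptides. The core is a barrel of stacked rings. Its outer rings are made of alpha subunits (Psma), which hold the gate, and its inner rings of beta subunits (Psmb), a few of which carry the cutting sites. The cap sits on the barrel and has a base with a ring of ATPases (Psmc) and a lid (most Psmd genes) that holds the enzyme removing ubiquitin. Heart muscle cells rely on this machine to renew the proteins of the sarcomere. In many cells the transcription factor NRF1, made from Nfe2l1, raises the subunit genes together when proteasome activity is low, by binding antioxidant response elements in their promoters.

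The name rule also takes in genes that are not constitutive subunits of the heart's particle, and 2 of them were all but absent. Psma8, an alternative alpha subunit of germ cells, had 20 counts in the young and 19 in the old libraries together, at most 14 in 1 library. Psmb11, the beta subunit of the thymoproteasome, had no count in any library. A count of 0 allows a level of up to 0.192 to 0.219 CPM (counts scaled to library size), counting error only. This bound was taken on plain totals, without the TMM scaling that the other CPM use. Both fell below the filter on low counts, so 34 members (14 core, 20 cap) were tested. Psmd5, Psmd9 and Psmd10 encode chaperones that help to build the base and leave before the particle is complete. Conversely, the subunits Adrm1 and Shfm1 (now Sem1) carry other names and were not matched by the rule.

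The libraries held 13673856 to 15583364 counted reads. Cardiomyocyte markers were abundant in every library, with 12 of 12 tested and a summed level of 66835 to 75087 CPM in young and 56533 to 63072 CPM in old hearts, and 4 of them were lower and 1 higher in old. The part of this shift in the results on the proteasome genes was not tested. Germ cell and thymic markers summed to 1.76 to 5.42 CPM, with Tnp1 and Foxn1 at 0 throughout. In whole tissue, fewer cells of a type and less RNA per cell cannot be told apart. Old was compared with young over 14413 genes by edgeR's quasi-likelihood test with Benjamini-Hochberg adjustment, and a gene was called where the adjusted p was under 0.05. Fold changes are log2 of old over young ± SE, with an SE taken from the test statistic, and CPM and FPKM means are ± SD with n = 3.

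Among the old libraries, old 1 stands apart for these genes. In old 1 the median of the 34 members' log2 CPM differed from the young mean by 0.01, against −0.19 in old 2 and −0.30 in old 3. Old 1 was the highest of the old libraries for 28 of 34 members (82.4%), against 40.4% of all genes tested. The young libraries also differed together, by less. Above the young mean lay 33 of 34 members in young 1, and below it 26 in young 3. Of all 14413 genes tested, 7270 and 7118 did. On unscaled totals the members took 0.361% of all counts in old 1, 0.329% in old 2 and 0.276% in old 3. The young libraries held 0.318% to 0.332%. These shares leave out the TMM factor, which was largest in old 1 and lowers its CPM relative to its share. The excess of old 1 over the young libraries is therefore given for unscaled totals only. Fold changes without old 1 are given beside those of the members described library by library, of the catalytic pairs and of the called pathway genes. Old 1 was singled out from these same values, and leaving it out leaves 2 old libraries. Lower adjusted p without it are therefore a description and no support for a change. Without any other single library 0 members were called.

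Promoter sequence was matched to 29 of the 36 members in RefSeq's table for GRCm38.p6, and 4 stretches are shown. Psmb5 and Psmb6, which were not called, are the cutting subunit genes with a match. Psmd4 and Psmc2 are the called members with a match, while the called members Psmb7 and Psmb2 had none. Each is the 120 bases before the annotated start, written 5′ to 3′ along the gene's strand, and the capitals mark a searched motif. Psmb5 and Psmb6 encode cutting subunits and hold the antioxidant response element TGACNNNGC, on chr14:54617996-54618115 (minus strand) and chr11:70525237-70525356 (plus strand). Psmd4 and Psmc2, whose RNA moved in opposite directions with age, hold a CCAAT box, on chr3:95042615-95042734 (minus strand, where it reads ATTGG) and chr5:21785155-21785274 (plus strand). The table lists another start for Psmc2, and the 250 bases before that one, chr5:21786497-21786746, hold no CCAAT.
Psmb5: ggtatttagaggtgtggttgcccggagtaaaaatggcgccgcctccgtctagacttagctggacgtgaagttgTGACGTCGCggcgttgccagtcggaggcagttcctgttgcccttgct
Psmb6: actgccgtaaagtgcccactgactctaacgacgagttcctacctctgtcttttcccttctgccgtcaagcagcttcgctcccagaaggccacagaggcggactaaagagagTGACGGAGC
Psmd4: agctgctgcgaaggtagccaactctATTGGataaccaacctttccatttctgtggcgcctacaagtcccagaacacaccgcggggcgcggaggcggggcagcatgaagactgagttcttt
Psmc2: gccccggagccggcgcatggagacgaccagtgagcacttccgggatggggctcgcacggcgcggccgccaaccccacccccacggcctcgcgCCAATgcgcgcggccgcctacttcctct

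Searched on both strands of the 250 bases before the start, TGACNNNGC was found in 5 of 29 members (17.2%) and in 3112 of 27025 promoters of the table (11.5%). The holders were the 2 core genes Psmb5 and Psmb6 and the 3 cap genes Psmc6, Psmd9 and Psmd12. For Psmd9 the window, chr5:123227940-123228189, lies inside the gene as annotated in GENCODE (123169413 to 123250131), so its start differs between the annotations. CCAAT was found in 12 of 29 members (41.4%) and in 37.5% of all promoters. The GC box GGGCGG was found in 17 of 29 members (58.6%) and in 35.4% of all promoters, in 5 of 12 core and 12 of 17 cap genes. A match is a description of the letters in this window only. Among called members with a promoter in the table, Psmd4 and Psmc2, neither held TGACNNNGC.

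Levels between genes were compared in the authors' FPKM, which scale reads to gene length and depth. Psmb6, with a longest coding transcript of 798 bases, had 144 CPM and 73.8 FPKM in young hearts. Psmb7, with 1160 bases, had 169 CPM and 133 FPKM, so the lengths behind the FPKM differ from these. The span, order and medians given here hold for the authors' lengths only. In young hearts the 34 members spanned 37.0-fold, from 3.60 ± 0.212 FPKM for the chaperone gene Psmd5 to 133 ± 8.46 FPKM for Psmb7, the trypsin-like cutting subunit. The core median was 65.2 FPKM and the cap median 28.9 FPKM in young hearts, and 59.4 and 24.9 FPKM in old hearts. Within the core the range was 9.23-fold, with Psma3 lowest at 14.4 ± 0.209 FPKM. Within the cap it was 24.0-fold, with the ATPase gene Psmc1 highest at 86.4 ± 3.85 FPKM. Neighbours in the order overlapped between young libraries in 22 of 33 cases, so most adjacent ranks do not differ beyond their spread.

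**Figure D1:**
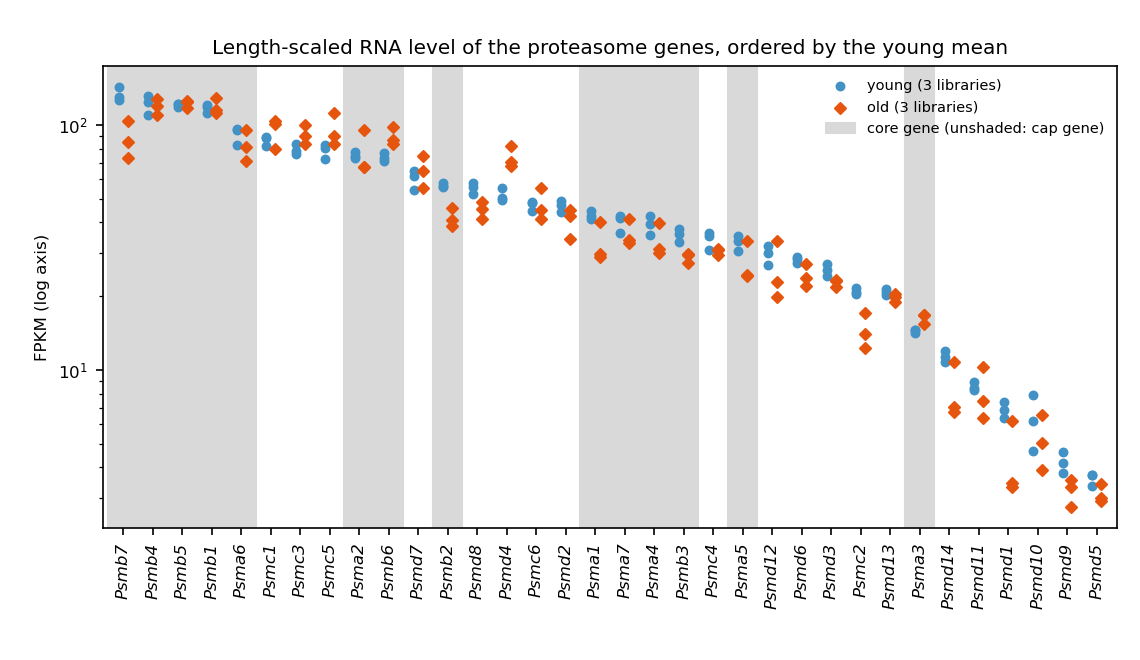
Points give the FPKM (log axis) of each of the 34 tested genes in the 3 young and 3 old libraries, ordered by the young mean, with core genes on shaded columns. The order was much alike at both ages (Spearman's rho 0.979 across 34 genes that share their libraries), while Psmb7 moved from rank 1 in young to rank 8 in old hearts.

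Beta subunits led this FPKM order in young hearts. Behind Psmb7 came Psmb4 (122 ± 11.0 FPKM), Psmb5 (121 ± 1.92 FPKM) and Psmb1 (117 ± 4.54 FPKM), whose young values overlapped. Psmb5 held rank 1 in old hearts at 122 ± 4.50 FPKM. The lowest subunit gene that is no chaperone was Psmd1, the large scaffold Rpn2 of the base, at 6.89 ± 0.505 FPKM in young and 4.33 ± 1.63 FPKM in old hearts. The lid alone ran from 8.55 ± 0.354 FPKM (Psmd11) to 60.3 ± 5.37 FPKM (Psmd7) in young hearts.

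With age, 4 of 34 members were called (11.8%), against 15.1% of all genes tested. Psmd4 rose, and Psmb7, Psmb2 and Psmc2 fell. In the core 0 genes rose and 2 of 14 fell, and in the cap 1 of 20 rose and 1 fell, where 8.72% of all genes rose and 6.36% fell. The share called was therefore near that of all genes. Each of the 4 calls was lost when any library other than old 1 was left out (edgeR adjusted p from 0.0621 to 0.158). The log2 fold change then and without old 1 lay between 0.43 and 0.55 for Psmd4, −0.75 and −0.49 for Psmb7, −0.67 and −0.42 for Psmc2, and −0.51 and −0.37 for Psmb2. The median log2 fold change was −0.16 over the members, −0.14 in the core and −0.18 in the cap, against 0.02 over all genes tested, and single genes ran from −0.66 (Psmd1) to 0.51 (Psmd4). A negative sign was seen in 23 of 34 members (67.6%) and in 48.4% of all genes. Under upper-quartile scaling, which lowers the median of all genes to −0.03, it was seen in 27 members.

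**Figure D2:**
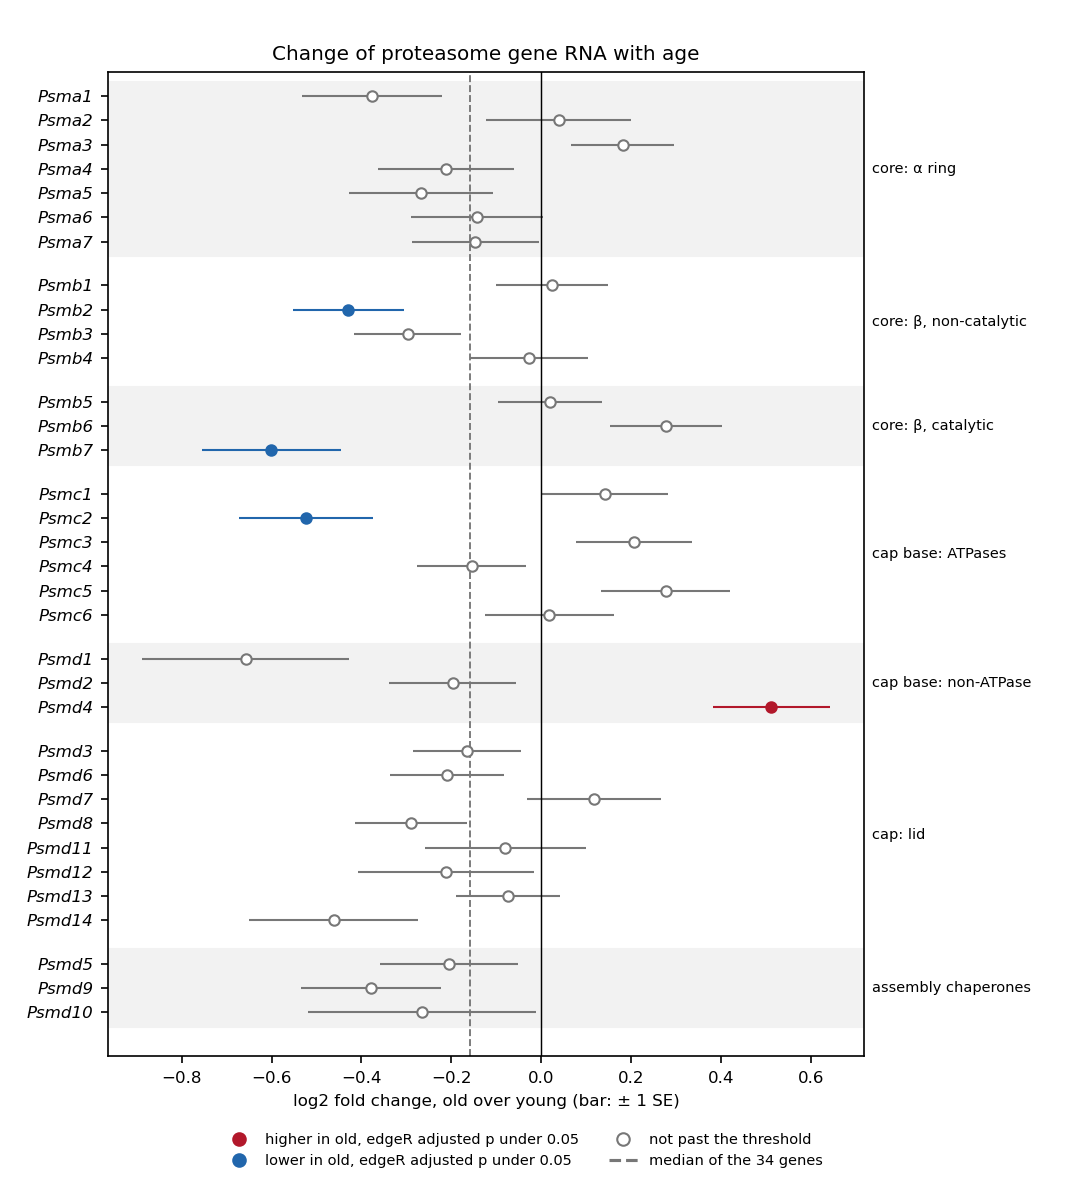
Points give the log2 fold change of old over young for the 34 tested genes, grouped by role in the particle, with bars of ± 1 SE and filled points where the edgeR adjusted p was under 0.05. The dashed line is the members' median of −0.16, and the 4 filled points are Psmb2, Psmb7, Psmc2 and Psmd4.

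The 3 old libraries lay beyond all 3 young ones in 15 of 34 members (44.1%), 5 above and 10 below, against 37.3% of all genes (18.8% above and 18.4% below). At an unadjusted edgeR p under 0.05 there were 10 members, 9 lower and 1 higher, against 32.5% of all genes (14.6% lower and 17.8% higher). Leaving out the 3 chaperones left 31 subunit genes with a median of −0.15 and the same 4 calls.

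Of the alpha ring 0 of 7 genes were called by edgeR, DESeq2 or limma-voom, and 1 had an unadjusted edgeR p under 0.05. Of these genes, 5 had a negative and 2 a positive log2 fold change, with a median of −0.15. Psma1, an alpha subunit, gave 97.7, 93.3 and 91.0 CPM in young and 89.1, 64.6 and 63.4 CPM in old hearts. All 3 old values were below the young ones, with old 1 only just so, and the log2 fold change was −0.38 ± 0.16 (edgeR adjusted p = 0.128). Without old 1 it was −0.56 (edgeR adjusted p = 0.00193). Psma5, another alpha subunit, gave 46.3, 48.4 and 42.2 CPM in young and 46.8, 33.3 and 33.5 CPM in old hearts. Here old 1 lay among the young values and old 2 and old 3 below them (−0.27 ± 0.16, edgeR adjusted p = 0.273), and without old 1 the change was −0.45 (edgeR adjusted p = 0.00807). Psma4, Psma6 and Psma7 lay between −0.21 and −0.14, all with adjusted p of at least 0.359. Psma3, which gave 58.6 ± 1.04 CPM in young and 66.4 ± 3.17 CPM in old hearts, was the alpha gene with all old libraries above the young (0.18 ± 0.11, edgeR adjusted p = 0.303). Psma2 was near 0 (0.04 ± 0.16, and −0.16 without old 1), with old 1 at 95.5 CPM above and old 2 and old 3 at 66.0 and 66.6 CPM below the young range of 72.2 to 75.8 CPM.

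The 3 cutting subunits of the beta rings did not share a direction. Psmb7 (ENSMUSG00000026750, chromosome 2, 38588036 to 38644087, minus strand) gave 180.1, 159.9 and 166 CPM in young and 133, 108 and 93.0 CPM in old hearts. Every old value was below every young one, and old 3 was lowest. Mean Psmb7 fell from 169 ± 10.4 to 111 ± 20.2 CPM (−0.60 ± 0.16, edgeR adjusted p = 0.0314), and without old 1 the value was −0.75. Its exons share 405 bases with Nek6 on the opposite strand, and the strand setting of the counting is not given in the sources used here. Nek6 itself had 40 to 106 counts per library, where Psmb7 had 1253 to 2621.

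Psmb5, which carries the chymotrypsin-like site, gave 110.4, 111 and 109 CPM in young and 108, 113 and 113 CPM in old hearts. The groups overlapped, and the log2 fold change was 0.02 ± 0.12 (edgeR adjusted p = 0.923), and 0.04 without old 1. Psmb6, which carries the caspase-like site, gave 149, 143 and 140.0 CPM in young and 171, 189.9 and 163 CPM in old hearts. All old values were above the young ones, but the change of 0.28 ± 0.12 did not pass the test (edgeR adjusted p = 0.157), and without old 1 it was 0.29 (edgeR adjusted p = 0.0563). In each of the 3 old libraries Psmb6 was thus above and Psmb7 below its own young range. The difference between these genes was not tested.

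Among the non-cutting beta genes, 1 of 4 was called. Psmb2 (ENSMUSG00000028837, chromosome 4, 126677630 to 126709714, plus strand) gave 72.2, 69.7 and 71.0 CPM in young and 58.3, 48.2 and 51.6 CPM in old hearts. The young values were tight and all old ones lay below them. Psmb2 fell from 71.0 ± 1.21 to 52.7 ± 5.15 CPM (−0.43 ± 0.12, edgeR adjusted p = 0.0452), and without old 1 the value was −0.51. Psmb3 went from 85.3 ± 4.70 to 69.4 ± 3.16 CPM without overlap, and was not called (−0.30 ± 0.12, edgeR adjusted p = 0.118). Psmb1 and Psmb4 overlapped between the ages, at 0.02 ± 0.12 and −0.03 ± 0.13, and both turned sign without old 1 (−0.05 and 0.02).

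In the ATPase ring of the base, which unfolds substrates, 1 of 6 genes was called and 4 had a positive sign, 1 of which, Psmc6, was negative without old 1 (−0.12). Psmc2, the ATPase Rpt1 (ENSMUSG00000028932, chromosome 5, 21785283 to 21803787, plus strand), gave 112, 107 and 109.8 CPM in young and 91.1, 73.0 and 64.6 CPM in old hearts. All old libraries lay below the young, old 1 nearest to them. Psmc2 fell from 109.6 ± 2.94 to 76.2 ± 13.6 CPM (−0.52 ± 0.15, edgeR adjusted p = 0.0437), and without old 1 the value was −0.67. The other ATPase genes ranged from −0.15 ± 0.12 (Psmc4) to 0.28 ± 0.14 (Psmc5). Psmc3 and Psmc5 had all old libraries above the young ones, at 215 ± 9.80 to 248 ± 22.3 CPM and 114 ± 7.16 to 138 ± 20.5 CPM, and neither was called (edgeR adjusted p = 0.298 and 0.213). Psmc1 (0.14 ± 0.14) and Psmc6 (0.02 ± 0.14) overlapped between the ages. Psmc3 shares 215 exonic bases with Slc39a13 on the other strand, which had 399 to 507 counts per library.

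The non-ATPase genes of the base held both the highest and the lowest fold change of the set. Psmd4, the ubiquitin receptor Rpn10 (ENSMUSG00000005625, chromosome 3, 95032694 to 95042614, minus strand), gave 161, 147 and 146 CPM in young and 202, 238 and 207 CPM in old hearts. Each old value was above each young one, with old 2 highest. Psmd4 rose from 151 ± 8.29 to 216 ± 19.6 CPM (0.51 ± 0.13, edgeR adjusted p = 0.0298), and without old 1 the value was 0.55. In FPKM it moved from rank 14 in young to rank 11 in old hearts.

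Psmd1 was singled out after its values were seen. It gave 55.8, 52.0 and 48.7 CPM in young and 47.6, 25.0 and 26.3 CPM in old hearts. Old 1 lay just under the lowest young library, and the other old libraries far under it. Its change of −0.66 ± 0.23 had the largest SE among genes of its group and was not called (edgeR adjusted p = 0.0826), while without old 1 it was −1.02 ± 0.11 (edgeR adjusted p = 0.000167). Without any other single library the edgeR adjusted p was 0.152 to 0.248. The exons of Psmd1 share 301 bases with Gm21972 on the same strand, which had 0 counts in every library. They share 252 bases with Htr2b on the opposite strand, which had 0 to 5 counts per young and 7 to 16 per old library. Psmd1 had 353 to 812. Psmd2, the scaffold Rpn1, went from 197 ± 9.44 to 171 ± 23.7 CPM (−0.20 ± 0.14, edgeR adjusted p = 0.363).

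Of the 8 lid genes 0 were called by edgeR, DESeq2 or limma-voom, 2 had an unadjusted edgeR p under 0.05, and 7 had a negative sign (median −0.19). Psmd14, the deubiquitinase Rpn11, gave 33.0, 35.1 and 31.8 CPM in young and 31.9, 19.6 and 20.8 CPM in old hearts. Old 1 lay inside the young range, and old 2 and old 3 well under it (−0.46 ± 0.19, edgeR adjusted p = 0.124), and without old 1 the change was −0.72 (edgeR adjusted p = 0.000969). Psmd8, the lid subunit Rpn12, gave 89.2, 92.3 and 84.1 CPM in young and 78.6, 72.3 and 66.2 CPM in old hearts. These groups were apart, and the change of −0.29 ± 0.12 was not called (edgeR adjusted p = 0.14), while without old 1 it was −0.36 (edgeR adjusted p = 0.0205). Of the rest, Psmd3 and Psmd6 also had all old libraries below the young, at −0.16 ± 0.12 and −0.21 ± 0.13. Psmd11, Psmd12 and Psmd13 overlapped between the ages at −0.08 ± 0.18, −0.21 ± 0.20 and −0.07 ± 0.12, and Psmd7 was the lid gene with a positive sign (0.12 ± 0.15), which it lost without old 1 (−0.0054). Psmd11 and Psmd12 had old 1 above every young library and old 2 and old 3 below. Psmd13 shares 342 exonic bases with Sirt3 on the opposite strand, which had 434 to 664 counts per library.

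Base chaperone genes had low levels, with 0 of 3 called by edgeR, DESeq2 or limma-voom and 1 at an unadjusted edgeR p under 0.05. Psmd9 gave 21.9, 19.8 and 18.2 CPM in young and 17.1, 13.0 and 15.9 CPM in old hearts. All old values were below the young ones (−0.38 ± 0.16, edgeR adjusted p = 0.128), and without old 1 the change was −0.47 (edgeR adjusted p = 0.0301). Psmd5 gave 14.5, 13.1 and 14.7 CPM in young and 13.5, 11.3 and 11.7 CPM in old hearts, so that old 1 overlapped the young (−0.21 ± 0.15, edgeR adjusted p = 0.38, and −0.29 with 0.134 without old 1). Psmd10, also known as gankyrin, varied most among the young libraries, from 7.12 to 12.0 CPM, and overlapped between the ages (−0.27 ± 0.25). The exons of Psmd9 share 1849 bases with Gm26745 on the opposite strand, which had at most 6 counts in a library.

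By the median of their genes, core and cap moved alike over the libraries. In old 1 the median deviation from the young mean was 0.04 in the core and −0.02 in the cap, in old 2 −0.21 and −0.18, and in old 3 −0.32 and −0.29. Their shares of all counts, on unscaled totals, parted in old 2. There the core took 0.140% (0.144% to 0.150% in young) and the cap 0.189% (0.174% to 0.182% in young). Both shares lay above the young ones in old 1 and below them in old 3. Of the 34 members, 11 lay below every young library in old 1, 23 in old 2 and 25 in old 3, where 35.1%, 40.3% and 39.3% of all genes did. Above every young library lay 13 members in old 1 (38.2%), 8 in old 2 (23.5%) and 6 in old 3 (17.6%), where 37.2%, 40.2% and 39.7% of all genes did, so the count in old 1 was near that of all genes. The young libraries were much closer together, with a median SD of log2 CPM of 0.07 in young and 0.20 in old hearts for members, against 0.14 and 0.27 for all genes.

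**Figure D3:**
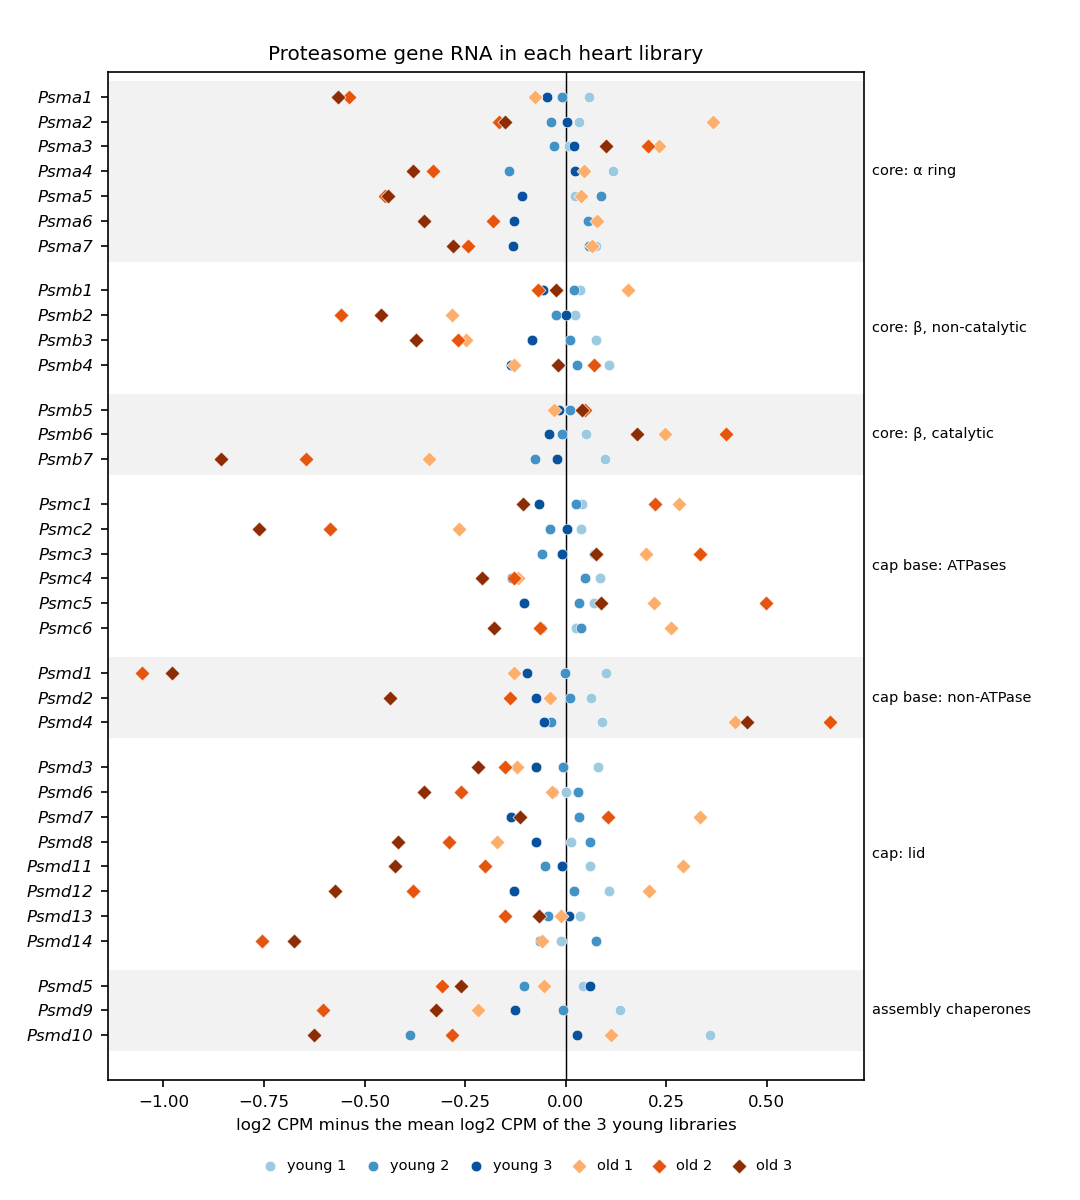
Each point is the log2 CPM of 1 gene in 1 library minus that gene's mean over the 3 young libraries, with young libraries as circles and old libraries as diamonds. Old 1 lies above all young libraries for 13 and below them for 11 of 34 genes (37.2% and 35.1% of all genes), while old 2 and old 3 lie below them for 23 and 25 of 34 genes (40.3% and 39.3% of all genes).

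Without old 1, 15 of 34 members were called (44.1%), 6 of the core and 9 of the cap, against 37.9% of all genes. Of these 14 were lower and 1 higher, where 17.7% of all genes were lower and 20.1% higher. The lower ones were Psma1, Psma4, Psma5, Psmb2, Psmb3, Psmb7, Psmc2, Psmd1, Psmd6, Psmd8, Psmd9, Psmd11, Psmd12 and Psmd14, and Psmd4 was again the higher one. The median over the members was then −0.28. Leaving out any other single library left 0 members called, with 4 to 7 at an unadjusted p under 0.05. The share of all genes called then was 3.63%, 3.65% and 4.18% without young 1, young 2 and young 3, 10.4% without old 2 and 6.23% without old 3. DESeq2 called 5 members, adding Psmd1, against 18.7% of all genes. With no filter on low counts 4 members were called against 11.9% of all genes, with Psmd1 in place of Psmb2.

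The level profile of the members over the libraries was summarised as the mean of their standardised log2 CPM. Psmd12, Psma6 and Psma7 followed it most closely (Pearson's r of 0.98, 0.98 and 0.95 over the 6 libraries), while Psmb5 (−0.70) and Psmd4 (−0.47) ran against it. Each member is part of this mean, so a high r of a member is partly built in. Outside the set, the genes most like the profile were Lpgat1 (0.999), Alox5 (0.998), Gm10171 (0.997), AI314180 (0.992) and Apex1 (0.992), picked from 14413 genes over 6 libraries. Such a pick gives high r without any link, and Gm10171 (0.223 to 1.37 CPM) and Apex1 (0.965 to 2.13 CPM) had very low levels. AI314180 is now named Ecpas and encodes a scaffold protein that binds the proteasome, and it gave 147, 139 and 136 CPM in young and 143, 132 and 122 CPM in old hearts (−0.09 ± 0.13). Fold changes of members had Pearson's r of −0.01 with log2 transcript length and 0.19 with GC content across 34 genes. Within the cap the same values were −0.32 and 0.29 (20 genes), and within the core 0.36 and 0.02 (14 genes), so the values for length had opposite signs. Spearman's rho with GC content was 0.26 over the members, 0.42 in the cap and 0.04 in the core, against 0.07 over all genes. The part of length and GC content in the fold changes was not tested.

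Of the genes that help to build the core, Pomp and Psmg4 rose in old hearts. Of 5 assembly factors with other names, these 2 were called, and all 5 had a positive sign (median 0.33). Pomp, the maturation protein that is consumed as the core closes, gave 95.9, 89.7 and 84.2 CPM in young and 138, 144 and 133 CPM in old hearts. The groups were far apart, and Pomp rose from 89.9 ± 5.88 to 138 ± 5.13 CPM (0.62 ± 0.12, edgeR adjusted p = 0.012). Psmg4, a chaperone of the alpha ring, rose from 12.3 ± 1.24 to 21.5 ± 6.63 CPM (0.80 ± 0.22, edgeR adjusted p = 0.0365). The call of Pomp was lost without young 1, young 2 or young 3 (edgeR adjusted p = 0.0565, 0.0773 and 0.0918), and that of Psmg4 without any library other than old 1 (0.0769 to 0.146) and on log2 FPKM with a pseudocount of 1 or 0.1 (limma adjusted p = 0.0575 and 0.0563). Without old 2 the fold change of Psmg4 was 0.53. Without old 1, Pomp stood at 0.62 and Psmg4 at 0.96. Of the subunits with other names 0 of 2 were called by edgeR, DESeq2 or limma-voom, though both had an unadjusted edgeR p under 0.05. Shfm1 stood at 0.39 ± 0.14 and Adrm1, a ubiquitin receptor, at −0.27 ± 0.11 (edgeR adjusted p = 0.0855 and 0.135), each with groups that did not overlap.

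Immunoproteasome genes, whose products replace the 3 cutting subunits when the particle is built under interferon, rose in 3 of 3 cases. Psmb8 changed by 2.13 ± 0.22, Psmb9 by 1.46 ± 0.17 and Psmb10 by 1.05 ± 0.19 (edgeR adjusted p = 0.00142, 0.00179 and 0.00813). Of these, Psmb10 lost its call without young 2 (edgeR adjusted p = 0.0526). Without old 1 the changes were 2.34, 1.58 and 1.24. The ratio of each to its constitutive counterpart was taken per library in FPKM. Psmb8 over Psmb5 was 0.0428, 0.0537 and 0.0529 in young and 0.151, 0.255 and 0.236 in old hearts, a difference of 2.08 in the log2 ratio (2.31 without old 1). The FPKM of Psmb5 overlapped between the ages, and that of Psmb8 did not. Psmb9 over Psmb6 was 0.0398, 0.0425 and 0.0506 in young and 0.0842, 0.109 and 0.107 in old hearts, a difference of 1.17 (1.29 without old 1).

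Psmb10 over Psmb7 was 0.27, 0.288 and 0.298 in young and 0.533, 1.06 and 1.23 in old hearts, a difference of 1.63 in the log2 ratio (2.00 without old 1). Here both genes moved. In old 2 and old 3 Psmb10, at 90.2 and 90.1 FPKM, stood above Psmb7, at 85.4 and 73.3 FPKM, while in old 1 it stood below (55.3 against 104 FPKM). The 2 genes were close in old 2, and their order there depends on the gene lengths that the authors used. For each of the 3 pairs all old ratios were above all young ones, with an exact two-sided permutation p = 0.1, adjusted 0.1 over 3 pairs, the smallest that 3 against 3 libraries allow. Leukocyte markers, 9 of 10 in the table and 8 tested, had 3 higher and 0 lower. Their sum was 327 to 367 CPM in young hearts and 645, 526 and 404 CPM in old 1, old 2 and old 3, with no marker at 0 in all libraries. Single markers differed in their order over old 1, old 2 and old 3: Lyz2 gave 345, 179 and 145 CPM, Cd74 188, 240.4 and 158 CPM and Ptprc 18.6, 25.4 and 24.2 CPM. Their part in the rise of the immunoproteasome genes was not tested.

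**Figure D4:**
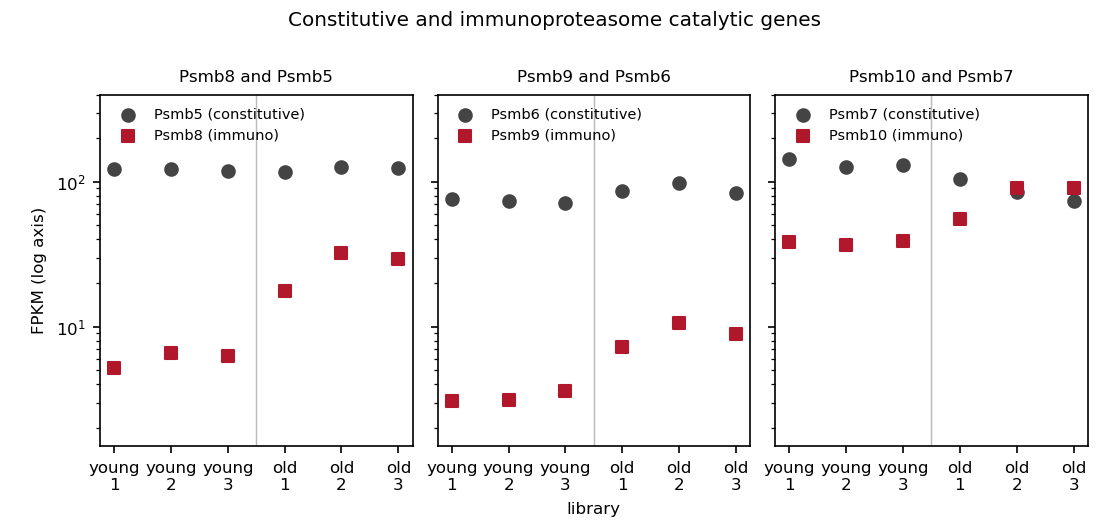
Points give the FPKM (log axis) of each constitutive cutting subunit gene (circles) and its immunoproteasome counterpart (squares) in every library. By the authors' FPKM, Psmb8 and Psmb9 stayed below Psmb5 and Psmb6 in all 6 libraries, while Psmb10 stood above Psmb7 in old 2 and old 3.

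Among the other activators and the inhibitor, 1 of 5 was higher and 1 lower. Psme2, part of the interferon-induced cap PA28, rose (1.14 ± 0.18, edgeR adjusted p = 0.00503, and 1.27 without old 1). It has a near-identical copy, Psme2b, so its counts depend on how shared reads were treated. Psme3, the nuclear cap PA28 gamma, fell from 43.6 ± 2.07 to 31.9 ± 3.22 CPM (−0.45 ± 0.13, edgeR adjusted p = 0.0441), a call lost without any library other than old 1 (0.0909 to 0.175). Without old 1 the change of Psme3 was −0.54. Of 10 proteasome-bound deubiquitinases and shuttles 0 were called by edgeR, DESeq2 or limma-voom, and 2 had an unadjusted edgeR p under 0.05 (median −0.08). Of 6 genes for ubiquitin and its activation 1 was higher, Rps27a, a ribosomal protein made as a fusion with ubiquitin (1.06 ± 0.15, edgeR adjusted p = 0.00379, and 0.96 without old 1).

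In the NRF1 pathway 1 of 10 genes was called, Maff, a small MAF partner of NRF1 (0.85 ± 0.15, edgeR adjusted p = 0.00836). Its call was lost without young 1 or young 2 (edgeR adjusted p = 0.0565 and 0.0527), and without old 1 the change was 0.75. Nfe2l1 itself gave 323, 338 and 328 CPM in young and 364, 287 and 249 CPM in old hearts. Old 1 was above and old 2 and old 3 below the young libraries, and the change of −0.14 ± 0.16 was not called (edgeR adjusted p = 0.583).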

How the data were processed

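Total RNA of 3 young and 3 old hearts was sequenced. The submitters' processing notes name HISAT2, featureCounts of Subread and GRCm38.p6; their versions, the annotation release and how strand and multi-mapped reads were handled are not given in the sources used. The authors deposited whole-number counts per gene, and FPKM for 13170 genes (34 members) scaled to length and depth.

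Rows without a name (571, 0.295% to 0.368% of counts) were left out. In R 4.3.3, edgeR 4.0.16 was run over all genes with filterByExpr, TMM and quasi-likelihood tests (biological coefficient of variation 0.187), and tested on simulated data. CPM use TMM-scaled totals. Alternatives were DESeq2 1.42.0, limma 3.58.1 (voom, and log2 of the authors' FPKM plus 1 or 0.1), other scaling and filters, a fit blocked on replicate number, and leaving out single libraries. Catalytic pairs were compared by exact permutation.

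Members and gene lists were chosen with earlier results of these data known. Values in every library are given for called members and, in role groups without a call, for the 2 members with the smallest p. Pathway lists give counts and their called genes, at most 3 each. Coordinates are those of GENCODE M21 (GRCm38).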

Additional observations from a re-analysis of the deposited data

How the results depend on the processing

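The same 4 members were called under RLE and upper-quartile factors, a filter of 1 CPM in 3 libraries, limma-voom and log2 FPKM with either pseudocount. Without a filter on low counts the core kept 1 call. Leaving out 1 library at a time gave 539 to 5570 calls over all genes, 0 to 15 over the members, 0 to 6 in the core and 0 to 9 in the cap, the upper ends without old 1. Over these the core median ran from −0.27 to −0.07 and the cap median from −0.29 to −0.10, negative throughout. Adjusted p of the called members over all alternatives ran from 0.0035 to 0.158 (Psmd4), 0.00087 to 0.130 (Psmb7), 0.000985 to 0.149 (Psmc2) and 0.00288 to 0.158 (Psmb2). With the replicate number as a block 2 members were called, 1 in the core (Psmb7) and 1 in the cap (Psmd1), against 12.3% of all genes. Over all genes, the deviations of same-numbered libraries correlated at −0.09, −0.07 and 0.03, and those of differently numbered ones at −0.10 to 0.15. Pairing was not assumed in the main fit. These correlations cannot decide whether same-numbered libraries shared a batch, because a batch may touch only some genes. The 4 called members kept their signs under every alternative run. Without old 1 the signs of Psma2, Psmb1, Psmb4, Psmc6 and Psmd7 turned (−0.16, −0.05, 0.02, −0.12 and −0.0054), none of them called, and the number of negative members ran from 22 to 27 over the alternatives. The cause of these differences was not tested. The SEs of the members' log2 fold changes, 0.11 to 0.25, limit what 3 libraries per age can show.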
